A study of Mus musculus with 8 samples.

Results

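The matrix metalloproteinase (MMP), ADAM, ADAMTS, ADAMTS-like (ADAMTSL) and TIMP families were followed in mouse embryonic fibroblasts (MEFs) that lacked VHL, FIH or both. Members were all genes whose symbol in the annotation of the array is Mmp, Adam, Adamts, Adamtsl or Timp followed by a number, with or without a letter. No measured value enters this rule, but the members were chosen with earlier results of these data known. The rule found 70 of the 18193 genes with a probe set, namely 18 MMP, 28 ADAM, 15 ADAMTS, 5 ADAMTSL and 4 TIMP genes, with 124 probe sets. A further 5 probe sets that carry a family name beside another symbol were left out. MMPs are zinc-dependent endopeptidases that cleave collagens and other matrix proteins, and most are made as inactive proenzymes. ADAMs are membrane-anchored relatives that shed growth factors, cytokines and receptors from the cell surface, ADAMTS enzymes are secreted relatives that cleave proteoglycans or process procollagens, and ADAMTSL proteins resemble ADAMTS enzymes without the catalytic domain. TIMPs are secreted proteins that inhibit MMPs and some of the ADAM and ADAMTS enzymes, and fibroblasts are a main source of many of these proteins in connective tissue.

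The study asked how gene expression across the genome changes when FIH, VHL or both are deleted. VHL recognises oxygen-modified HIF alpha subunits and directs them to ubiquitination and the proteasome, and FIH, encoded by Hif1an, hydroxylates an asparagine of HIF alpha and so keeps coactivators away. There were 4 groups of 2 arrays each: VHL/FIH null MEFs, obtained by adeno-cre infection of VHLdf/FIHdf cells, VHL null MEFs from VHLdf cells, FIH null MEFs from FIHdf cells, and wild-type MEFs. The lines that were infected had been immortalized with large T, and all groups were grown at 21% oxygen in high-glucose medium with serum. Each null genotype came from a parental line of its own, so genotype and line cannot be told apart, and whether the wild-type cells had met the virus is not given in the sources used here. The 2 samples of a group are called biological replicates, but the labels do not say whether they were separate embryos or cultures, so the p-values reflect no more than the spread of these pairs.

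Each value is a MAS5 signal, a linear intensity per probe set, and the deposited arrays shared a trimmed mean of 2500.01. Over all probe sets, r was 0.968 to 0.971 between arrays within a group and 0.954 to 0.969 between arrays of different groups. Hif1an gave 1404 and 1169 in VHL/FIH null cells, 1913 and 2153 in VHL null cells, 1676 and 1707 in FIH null cells and 2722 and 3013 in wild-type cells. Vhl gave 1061 and 897 in VHL/FIH null cells, 708 and 754 in VHL null cells, 3534 and 3426 in FIH null cells and 3269 and 3320 in wild-type cells. Each targeted gene was lower in both groups labelled null for it than in the other groups, without falling below the signal cutoff of 291.1, and whether its probe set lies in the deleted part is not given in the sources used here. Of 14 fibroblast markers, 4, 1, 3 and 1 were below that cutoff on both arrays in VHL/FIH null, VHL null, FIH null and wild-type cells, in that order, while 9 of 12 macrophage markers were below it in each group. The 4 in VHL/FIH null cells were Pdgfra, Thy1, Dcn and Lum. Pdgfra gave 160 and 190 in VHL/FIH null against 777 and 1243 in wild-type cells, and Dcn 47.7 and 213 against 588 and 632. The summed signal of the 14 ran from 367189 to 415677 and from 338842 to 349093 in these 2 groups. Of 11 endothelial markers, 6, 9, 7 and 8 were below the cutoff in the order above. The summed signal of 11 epithelial markers ran from 40850 to 48179 in VHL/FIH null cells, from 16862 to 17265 in VHL null cells, from 12172 to 12633 in FIH null cells and from 11164 to 11488 in wild-type cells. Most of it was the keratin gene Krt19. Of the other epithelial markers, Cdh1, Krt14, Cldn3, Cldn4 and Esrp1 were below the cutoff on all 8 arrays and Krt8 on 7, Krt18 was above it on all 8, at 382 and 298 in VHL/FIH null and 1356 and 1393 in wild-type cells, and Epcam, Grhl2 and Krt5 were above it on some arrays of each group. Of 9 skeletal muscle markers, 6 were below the cutoff in VHL/FIH null and 7 in wild-type cells, with sums of 2506 to 2745 and 1308 to 1326, and most of that gap was Acta1, at 1565 and 1457 against 391 and 466. Of 11 cartilage and bone markers, 5, 5, 5 and 4 were below the cutoff on both arrays of VHL/FIH null, VHL null, FIH null and wild-type cells, with sums of 4943 to 5384, 5722 to 6587, 3663 to 3916 and 6202 to 6360. Single markers moved in opposite directions within these sums. Col2a1 was highest in wild-type cells, at 2049.5 and 2272.5, against 401.6 and 571.5 in VHL null cells. Acan was highest in VHL null cells, at 1533 and 1923, against 592 and 508.5 in wild-type cells. Col11a1 was highest in VHL/FIH null cells, at 2502 and 2696, against 582 and 653 in wild-type cells. The part of these differences in the results for the families was not tested.

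The filter on low signals kept 30 of the 70 members, and 11564 of all 18193 genes with a probe set. A gene was tested when a probe set was above 291.1, the median of all signals of the arrays, on at least 2 arrays, and 30 of the 70 members met this: 6 of 18 MMP, 11 of 28 ADAM, 7 of 15 ADAMTS, 3 of 5 ADAMTSL and 3 of 4 TIMP genes. Of the other members, 38 were not above the cutoff on any of the 8 arrays, and Adamts3 and Adamts9 were above it on 1 array each. The untested MMPs were the collagenases Mmp1a, Mmp1b, Mmp8 and Mmp13, the gelatinase Mmp9, the stromelysins Mmp3 and Mmp10, the matrilysin Mmp7, the macrophage elastase Mmp12, the enamel protease Mmp20, and Mmp17 and Mmp19. Mmp13, which cleaves fibrillar collagen in cartilage and bone, stayed between 5.1 and 66.1 on the 8 arrays. For Mmp9, which cleaves denatured collagen and collagen of basement membranes, the brighter of its probe sets lay between 8.8 and 264.8. Mmp13, Mmp12, Mmp1b, Mmp3, Mmp1a, Mmp10 and Mmp8 follow each other on chromosome 9 in the RefSeq gene table, and all of these 7 genes were below the cutoff on every array. The untested ADAM genes were Adam1a, Adam1b, Adam2, Adam3, Adam5, Adam6a, Adam6b, Adam7, Adam18, Adam21, Adam23, Adam24, Adam25, Adam26a, Adam28, Adam32 and Adam34, of which Adam1a, Adam1b, Adam2 and Adam3 are known for their part in sperm. Adamts7, Adamts8, Adamts15, Adamts18, Adamts19, Adamts20, Adamtsl1, Adamtsl2 and Timp4 were the remaining untested members. A signal below the cutoff limits what the arrays can show and is not evidence that a gene was silent.

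**Figure D1:**
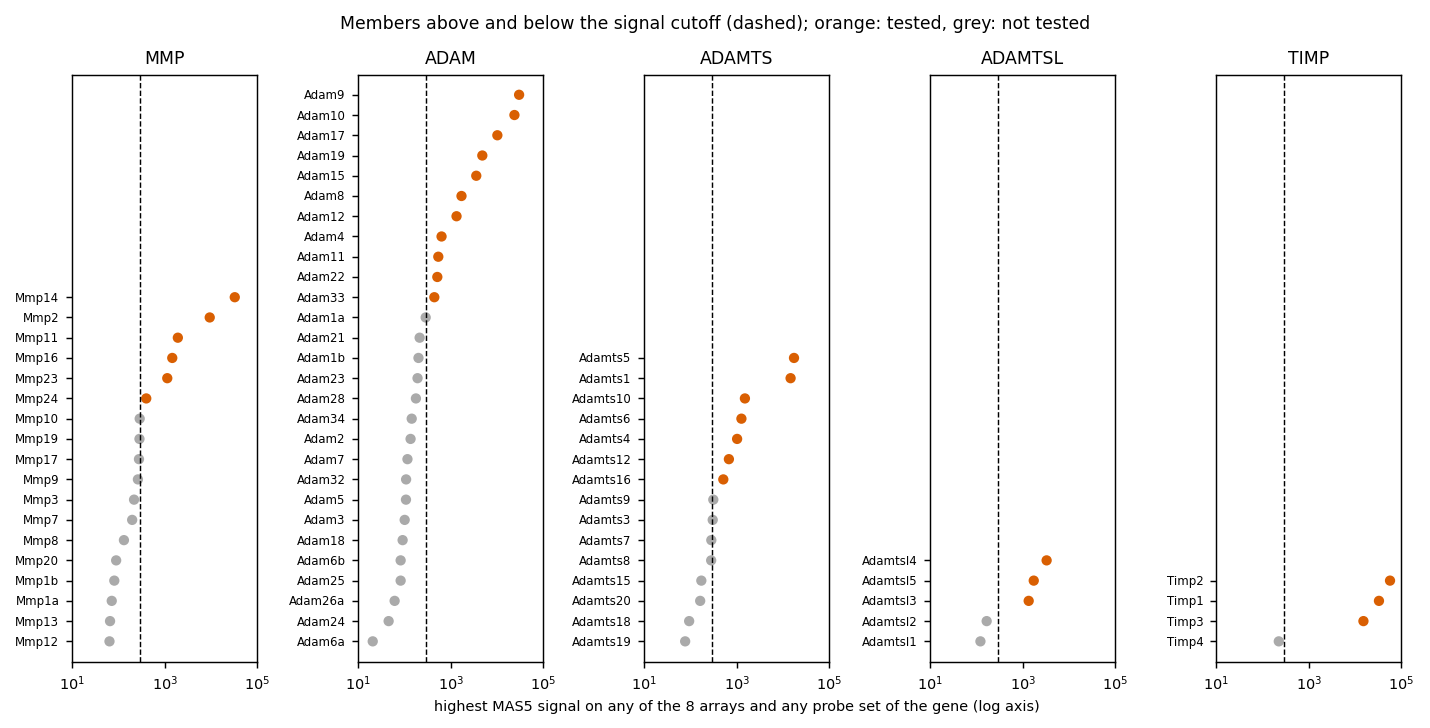
The x axis gives the highest MAS5 signal of each of the 70 members over its probe sets and the 8 arrays on a log axis, with 1 panel per family and 1 row per gene. Orange points are the 30 tested members, grey points the 40 others, and the dashed line is the cutoff of 291.1, which Adamts3 and Adamts9 passed on 1 array each.

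Group differences were tested with limma on log2(signal + 16) over all 11564 tested genes, each represented by the brightest of its tested probe sets. Adjusted p-values are from the Benjamini-Hochberg procedure over these genes, and a result passed when under 0.05. In bulk RNA a lower signal from fewer cells of a type and from less RNA per cell cannot be told apart. In VHL/FIH null against wild-type cells, 11 members were higher and 5 lower, 53.3% of the 30, where 41.4% of all tested genes passed, 17.8% higher and 23.6% lower. The 11 were Adam8, Adam9, Adam10, Adam12, Adam19, Adam22, Adamts1, Adamts5, Adamts12, Mmp16 and Mmp23, and the 5 were Mmp2, Adamts10, Adamtsl3, Adamtsl5 and Timp3. In VHL null against wild-type cells, Adam12, Adam22 and Timp1 were higher and 10 members were lower, 43.3% of the 30, where 43.8% of all tested genes passed, 15.5% higher and 28.4% lower. The 10 were Mmp2, Mmp11, Mmp14, Adam15, Adamts1, Adamts5, Adamts10, Adamtsl3, Adamtsl4 and Adamtsl5. In FIH null against wild-type cells, Mmp2 was higher and Adam19, Adamts4 and Adamtsl3 were lower, 13.3% of the 30 members, where 6.55% of all tested genes passed, 1.96% higher and 4.59% lower. The share of members that passed in VHL null cells lay near that of all genes. These splits depend on the scaling: with arrays scaled to their hybridization controls, 4 members were higher and 15 lower in VHL/FIH null, 1 and 19 in VHL null and 1 and 13 in FIH null cells, and with each array centred on its median the VHL null split was 5 and 8 and the FIH null split 2 and 3. That scaling lowers differences from wild type by about 0.52 in VHL/FIH null, 0.38 in VHL null and 0.26 in FIH null cells (log2). It ended the calls in VHL/FIH null against wild-type cells for Adam10, Adam12, Adam22, Adamts1, Mmp16 and Mmp23 (adjusted p from 0.0503 to 0.350).

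Against the VHL null cells, the VHL/FIH null cells had 13 members higher and 2 lower, 50% of the 30, where 37.7% of all tested genes passed, 22.3% higher and 15.4% lower. The 13 were Mmp2, Mmp11, Mmp16, Mmp23, Adam8, Adam9, Adam10, Adam15, Adam19, Adamts1, Adamts5, Adamts12 and Adamtsl4, and the 2 were the inhibitors Timp1 and Timp3. The median log2 difference of the 30 members was 0.30 in this comparison, and that of all tested genes was 0.05. Its split was 9 and 2 with the hybridization controls as the scale. Against the FIH null cells, the VHL/FIH null cells had 11 members higher and 3 lower, 46.7% of the 30. Of all tested genes 45.5% passed, 20.6% higher and 25% lower, so the share of members that passed lay near that of all genes. With the hybridization controls as the scale the split was 9 and 8. The 11 were Mmp16, Adam8, Adam9, Adam10, Adam12, Adam19, Adam22, Adamts1, Adamts5, Adamts6 and Adamts12, and the 3 were Mmp2, Adamts10 and Timp3. The median log2 difference of the members was 0.04, against -0.04 for all tested genes. Against wild type, the members' medians were 0.02 in VHL/FIH null, -0.20 in VHL null and -0.04 in FIH null cells, and those of all tested genes were -0.05, -0.10 and -0.0025. Comparisons that name the same group share its 2 arrays, so their lists are not independent of each other.

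Larger changes were fewer. For Adam22, which is counted here by its fitted difference, no fold of 2 is shown: it was above the cutoff in VHL null cells only, at least 1.72-fold higher there than in wild-type cells, and below it in both groups of the other comparisons that name it. In VHL/FIH null against wild-type cells 5 members passed with at least a 2-fold change, Adam8, Adam19, Adam22, Adamts12 and Mmp23, all higher, where 6.96% of all tested genes did. In VHL null against wild-type cells these were 4, Adam22, which was higher, and Mmp2, Adamts5 and Adamtsl3, which were lower, where 5.42% of all tested genes did. In FIH null against wild-type cells it was 1, Adamts4, which was lower, where 1.83% of all tested genes did. In VHL/FIH null against VHL null cells they were 5, Adam8, Adamts1, Adamts5, Adamts12 and Mmp23, all higher, where 5.99% of all tested genes did. In VHL/FIH null against FIH null cells they were 5, Adam12, Adam19, Adam22 and Mmp16, which were higher, and Mmp2, which was lower, where 7.79% of all tested genes did. The 2 arrays of each group did not overlap for 22 members in VHL/FIH null against wild-type cells (70.1% of all tested genes), for 22 in VHL null against wild-type cells (74% of all) and for 17 in FIH null against wild-type cells (55.5% of all). The same held for 20 members in VHL/FIH null against VHL null cells (67.4% of all) and for 23 in VHL/FIH null against FIH null cells (72.8% of all).

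**Figure D2:**
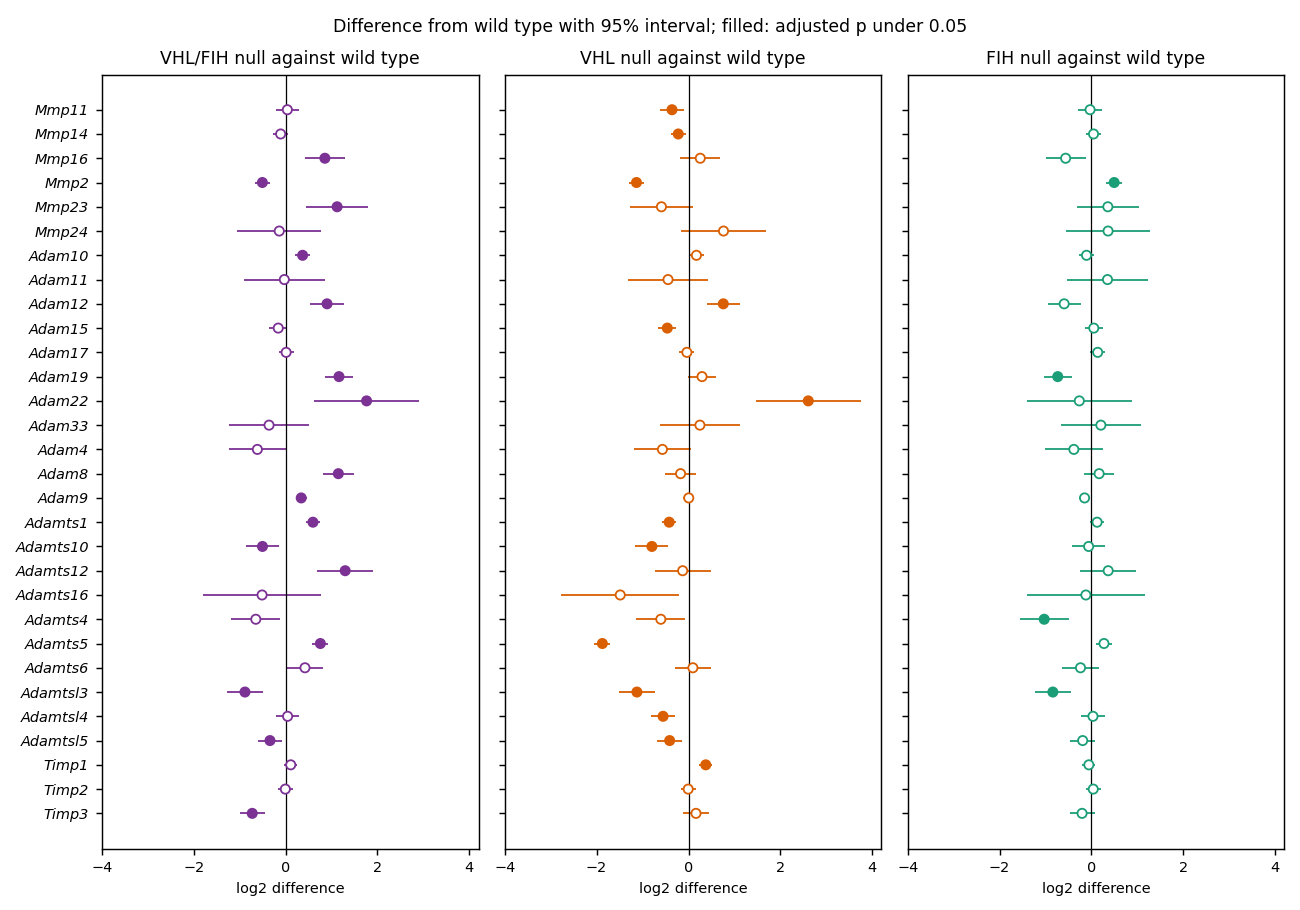
Points are log2 differences from wild type of the 30 tested members (rows, ordered by family) in VHL/FIH null, VHL null and FIH null cells, bars are 95% intervals from limma with 2 arrays a group, and filled points passed an adjusted p of 0.05. Adamts5 and Mmp2 lie far below 0 in VHL null cells, while Adamts5 lies above 0 in VHL/FIH null cells.

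Among the MMPs, the gelatinase Mmp2 fell with loss of VHL and rose with loss of FIH. Mmp2, on chromosome 8, gave 4635 and 4385 in VHL/FIH null cells, 2823 and 3006 in VHL null cells, 8629 and 9461 in FIH null cells and 6204 and 6620.4 in wild-type cells. No 2 groups overlapped, with VHL null lowest, then VHL/FIH null, wild type and FIH null. It fell in VHL null against wild-type cells by 1.13 on the log2 scale (SE 0.0761, adjusted p = 1.2e-06), and rose in FIH null against wild-type cells with a log2 difference of 0.49 (SE 0.0761, adjusted p = 0.00243). It was higher in VHL/FIH null than in VHL null cells by a log2 difference of 0.63 (adjusted p = 9.33e-05) and lower than in wild-type cells, with a log2 difference of -0.51 (adjusted p = 0.000324). The interaction, which is the change with FIH loss in cells without VHL minus that in cells with VHL, was 0.13 for Mmp2 (95% interval -0.10 to 0.37, adjusted p = 0.411). Its other tested probe set gave log2 differences from wild type of -0.53 in VHL/FIH null, -0.998 in VHL null and 0.49 in FIH null cells.

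Mmp14, a membrane-type MMP that cleaves collagen and activates the Mmp2 proenzyme, changed little. Its signals were 31834 and 26775 in VHL/FIH null cells, 26448 and 27453 in VHL null cells, 32919 and 32008 in FIH null cells and 31326 and 31599 in wild-type cells. Both VHL null arrays were below both wild-type arrays, and the log2 difference was -0.22 (SE 0.0740, adjusted p = 0.0301). That call was lost without either VHL null array or either wild-type array (adjusted p from 0.0739 to 0.150) and after median centring (0.122). Mmp16, another membrane-type MMP, was highest in VHL/FIH null cells, with 1464 and 1438, against 909.7 and 996 in VHL null cells, 643 and 442 in FIH null cells and 903 and 699.5 in wild-type cells. The VHL/FIH null arrays lay above the other 6, with log2 differences of 0.86 from wild type (SE 0.197, adjusted p = 0.00498), 0.60 from VHL null (adjusted p = 0.0331) and 1.42 from FIH null cells (adjusted p = 0.000156). The difference from VHL null cells was lost when any 1 of the 4 compared arrays was left out (adjusted p from 0.0798 to 0.150), while the 3 other probe sets of Mmp16 gave log2 differences from wild type of 1.30, 1.35 and 1.33 in VHL/FIH null cells.

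Mmp23, an MMP made as a membrane-anchored proenzyme, gave 688 and 1142 in VHL/FIH null cells, 244 and 276 in VHL null cells, 399 and 665 in FIH null cells and 447 and 356 in wild-type cells. Both VHL/FIH null arrays were above the other 6, and both VHL null arrays were below the cutoff, so the VHL/FIH null level was at least 3.14-fold higher than that of VHL null cells (adjusted p = 0.00138). Against wild type the log2 difference was 1.12 (SE 0.310, adjusted p = 0.0134), and the call was lost without wild type replicate 2 (adjusted p = 0.0811) or VHL/FIH null replicate 2 (0.131). The other tested probe set of Mmp23 was also higher in VHL/FIH null than in wild-type cells, with a log2 difference of 2.01, but in VHL null and FIH null cells its differences of 0.62 and -0.96 had the opposite sign to those of the first, -0.59 and 0.36, and none of these 4 passed. Mmp11, known as stromelysin-3, gave 1807 and 1934 in VHL/FIH null cells, 1286 and 1557 in VHL null cells, 1760 and 1806 in FIH null cells and 1792 and 1849 in wild-type cells. The VHL null arrays were the lowest, with a log2 difference from wild type of -0.36 (adjusted p = 0.0263), a call lost without wild type replicate 1 (0.0767), wild type replicate 2 (0.107) or VHL null replicate 1 (0.194). The rise of Mmp11 in VHL/FIH null against VHL null cells, 0.40 (adjusted p = 0.0190), was lost without VHL null replicate 1 (0.148) or VHL/FIH null replicate 2 (0.0851). Mmp24 lay between 139 and 362 on the 8 arrays and passed in no comparison.

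Several ADAM genes were highest when both VHL and FIH were lost. Adam19, a sheddase of neuregulins, gave 4852 and 3955 in VHL/FIH null cells, 2445 and 2340 in VHL null cells, 1020 and 1330 in FIH null cells and 1852 and 2049 in wild-type cells. No 2 groups overlapped, and FIH null cells were lowest. The log2 difference of VHL/FIH null from wild-type cells was 1.16 (SE 0.138, adjusted p = 5.84e-05), that from VHL null cells 0.87 (adjusted p = 0.000584) and that from FIH null cells 1.90 (adjusted p = 1.13e-06). In FIH null against wild-type cells Adam19 fell by 0.73 on the log2 scale (SE 0.138, adjusted p = 0.00875), a call lost without wild type replicate 2 (0.0738) or FIH null replicate 1 (0.0798). Loss of FIH thus went with opposite signs in the presence and absence of VHL, and the interaction was 1.60 (SE 0.195, adjusted p = 0.000223). Its other tested probe set gave an interaction of 1.33 (adjusted p = 0.0038 over all tested probe sets).

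Adam8, a sheddase best known from leukocytes, gave 1672 and 1720 in VHL/FIH null cells, 699 and 639.9 in VHL null cells, 846 and 857 in FIH null cells and 835 and 686 in wild-type cells. The VHL/FIH null arrays lay above the other 6, whose groups lay close together. Neither VHL loss alone, with a log2 difference of -0.17 (95% interval -0.50 to 0.16), nor FIH loss alone, with 0.17 (-0.16 to 0.50), passed the test against wild type, whereas VHL/FIH null cells differed by 1.15 (SE 0.151, adjusted p = 0.000125). Among 12 macrophage markers the summed signal was 3644 to 3814 in VHL/FIH null cells and 3621 to 4068 in wild-type cells, with 9 below the cutoff in each group. Cd14 was lower in VHL/FIH null than in wild-type cells, at 1392 and 1538 against 1738 and 1814. Cd68 was higher, at 752 and 576 against 482 and 410, and Csf1r overlapped. The part of such cells in the Adam8 signal was not tested. The 250 bases before the RefSeq start of Adam8 (mouse build GRCm38.p6, chr7:139992563-139992812, minus strand) are shown because the gene was high only on the VHL/FIH null arrays; they hold neither core of the hypoxia response element, ACGTG or GCGTG, on either strand.
Adam8: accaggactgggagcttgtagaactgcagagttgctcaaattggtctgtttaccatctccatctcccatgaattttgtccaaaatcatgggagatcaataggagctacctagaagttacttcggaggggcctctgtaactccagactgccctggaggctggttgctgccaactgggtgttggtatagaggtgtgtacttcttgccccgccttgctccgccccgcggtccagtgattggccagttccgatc

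Adam12, which sheds ligands of the EGF receptor, was higher in cells without VHL by the brighter of its tested probe sets. It gave 1287 and 1341 in VHL/FIH null cells and 1047 and 1344 in VHL null cells, against 443 and 468 in FIH null cells and 717 and 674 in wild-type cells. The 4 arrays without VHL lay above the other 4, and FIH null cells were lowest. The log2 difference from wild type was 0.90 in VHL/FIH null (SE 0.165, adjusted p = 0.00119) and 0.76 in VHL null cells (adjusted p = 0.00355), a call that was lost when probe sets were averaged (adjusted p = 0.0960) or arrays were scaled to hybridization controls (0.38, adjusted p = 0.0545). In FIH null against wild-type cells the difference of -0.59 did not pass (95% interval -0.96 to -0.23, adjusted p = 0.0582). The other tested probe set of Adam12 gave 0.69 in VHL/FIH null and 0.13 in VHL null cells against wild type. Neither passed (adjusted p = 0.109 and 0.773 over all tested probe sets). Adam22, a catalytically inactive member known as a receptor of the brain, gave 263 and 280 in VHL/FIH null cells and 516 and 484 in VHL null cells, against 34.8 and 81.7 in FIH null cells and 92.2 and 50.2 in wild-type cells. Only the VHL null arrays were above the cutoff, and VHL null cells were at least 1.72-fold higher than wild-type cells (adjusted p = 0.0021). It met the filter on low signals only through the group where it was high, which favours a difference there. The difference between VHL/FIH null and wild-type cells passed with both groups below the cutoff (adjusted p = 0.0183), and was lost without wild type replicate 2 (0.0891), VHL/FIH null replicate 1 (0.0677) or VHL/FIH null replicate 2 (0.0866). The same holds of both group levels where VHL/FIH null passed against FIH null cells (adjusted p = 0.00805).

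The widely expressed sheddases moved by smaller amounts. Adam9 gave 30312 and 28557 in VHL/FIH null cells, 23314 and 23322 in VHL null cells, 20831 and 21057 in FIH null cells and 23330 and 23154 in wild-type cells. It was higher in VHL/FIH null than in wild-type cells by a log2 difference of 0.34 (SE 0.0533, adjusted p = 0.000428), which became -0.18 (adjusted p = 0.0143) when arrays were scaled to their hybridization controls. Adam10, the sheddase of Notch receptors and cadherins, gave 22814 and 24013 in VHL/FIH null cells, 19997 and 20818 in VHL null cells, 15857 and 17815 in FIH null cells and 17324 and 18931 in wild-type cells. The VHL/FIH null arrays were highest, with a log2 difference from wild type of 0.37 (SE 0.0704, adjusted p = 0.00157) that became -0.15 under that scaling (adjusted p = 0.107). Of the other probe sets of Adam10, 1 gave 0.30 in the same comparison (adjusted p = 0.00667 over all tested probe sets) and 1 gave -0.04 (adjusted p = 0.829). The rise of Adam10 in VHL/FIH null against VHL null cells, 0.20 (adjusted p = 0.0461), was lost when any 1 of the 4 compared arrays was left out (adjusted p from 0.0554 to 0.202). Adam17, which sheds TNF and ligands of the EGF receptor, lay between 8612 and 10263 on the 8 arrays and passed in no comparison, and its log2 difference from wild type was 0.01 in VHL/FIH null (95% interval -0.15 to 0.17), -0.04 in VHL null (-0.20 to 0.12) and 0.14 in FIH null cells (-0.03 to 0.30). Another probe set of Adam17 fell in VHL null against wild-type cells by 0.43 (adjusted p = 0.00077 over all tested probe sets). The same probe set was higher in VHL/FIH null than in VHL null cells by 0.32 (adjusted p = 0.00455).

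Adam15 gave 3031 and 2955 in VHL/FIH null cells, 2410 and 2438 in VHL null cells, 3467 and 3463 in FIH null cells and 3590 and 3119 in wild-type cells. It was lowest in VHL null cells, with a log2 difference from wild type of -0.46 (SE 0.0872, adjusted p = 0.00151). Its rise in VHL/FIH null against VHL null cells, 0.30 (adjusted p = 0.0184), was lost without VHL null replicate 1 (0.0785), VHL null replicate 2 (0.0625) or VHL/FIH null replicate 1 (0.0661). Adam4, Adam11 and Adam33 lay between 158 and 637 on the 8 arrays and passed in no comparison.

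**Figure D3:**
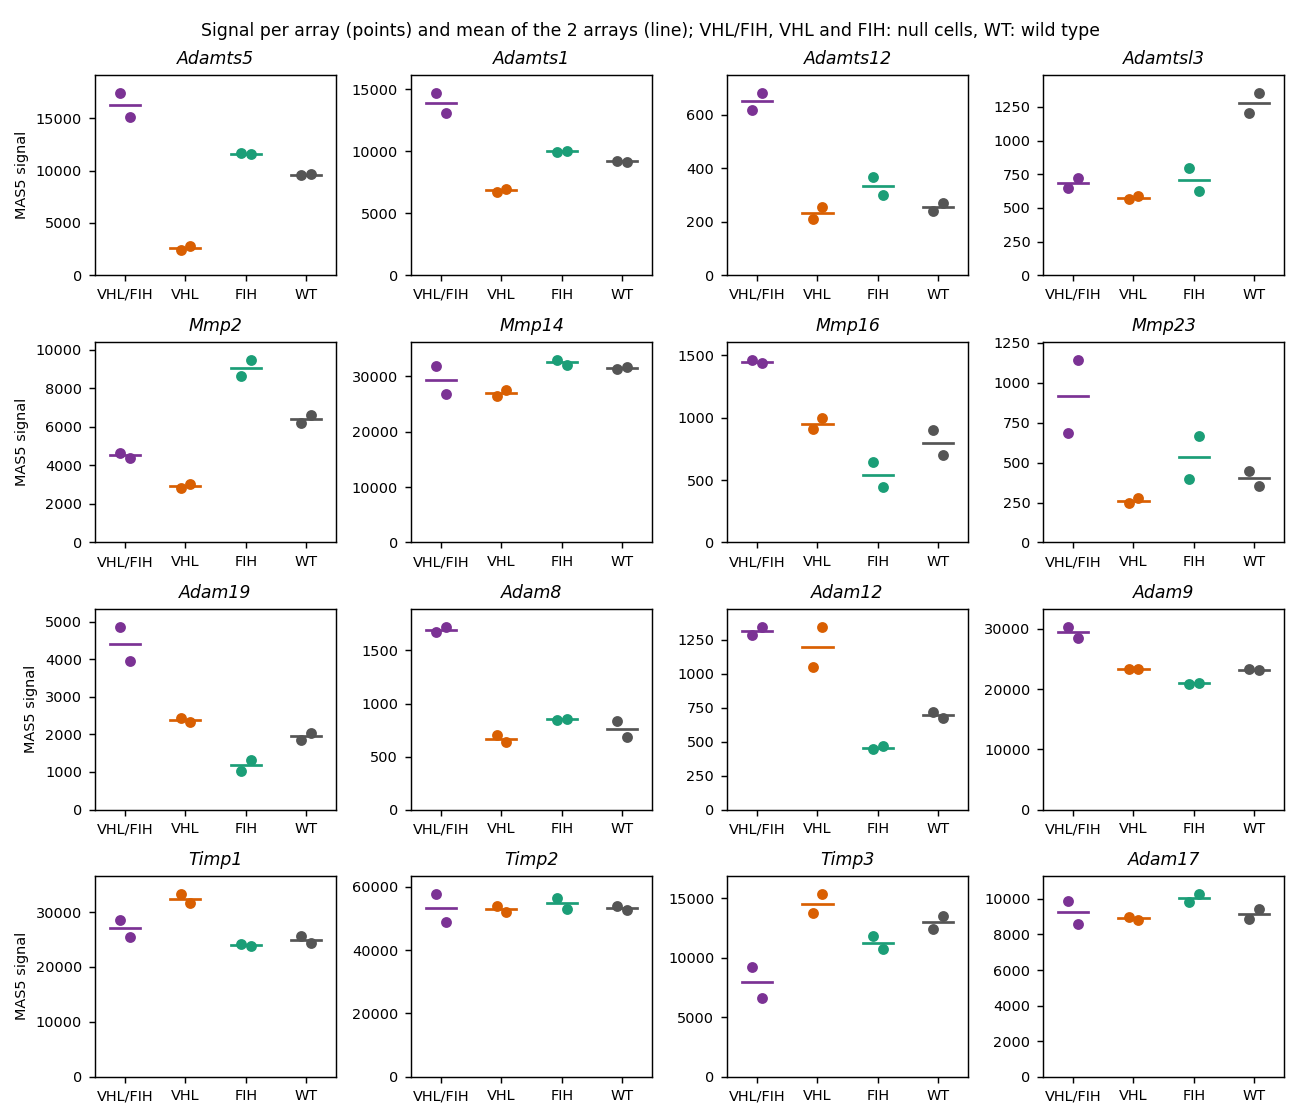
MAS5 signal (y axis, starting at 0) of 16 members on each of the 8 arrays, with 2 points and their mean (line) for VHL/FIH null, VHL null, FIH null and wild-type (WT) cells. Adamts5 and Adamts1 were lowest in VHL null and highest in VHL/FIH null cells, Adam8 and Adamts12 were high only in VHL/FIH null cells, and Timp2 overlapped in all 4 groups.

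The aggrecan-cleaving enzyme Adamts5 showed the largest change of all 30 tested members between VHL/FIH null and VHL null cells, and in the interaction. Adamts5, on chromosome 16, gave 17441 and 15175 in VHL/FIH null cells, 2465 and 2763 in VHL null cells, 11682 and 11568 in FIH null cells and 9555 and 9687 in wild-type cells. No 2 groups overlapped: VHL null cells were far below the rest and VHL/FIH null cells were highest. In VHL null against wild-type cells it fell by 1.88 on the log2 scale (SE 0.0789, adjusted p = 2.93e-08). It was higher in VHL/FIH null than in VHL null cells by 2.63 (SE 0.0789, adjusted p = 2.26e-09) and higher than in wild-type cells by 0.76 (adjusted p = 2.32e-05), which was 0.24 when arrays were scaled to hybridization controls (adjusted p = 0.0129). FIH loss alone gave 0.27 against wild type (95% interval 0.10 to 0.45, adjusted p = 0.0680), and the interaction was 2.36 (SE 0.112, adjusted p = 2.14e-07). The other tested probe sets of Adamts5 had log2 differences of -1.57 and -1.57 in VHL null against wild-type cells and of 2.32 and 2.33 in VHL/FIH null against VHL null cells.

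Adamts1, which cleaves versican and aggrecan, had the same order of groups with smaller differences. It gave 14711 and 13074 in VHL/FIH null cells, 6722 and 6975 in VHL null cells, 9975 and 10008 in FIH null cells and 9200 and 9148 in wild-type cells. No 2 groups overlapped. It fell in VHL null against wild-type cells by 0.42 (SE 0.0666, adjusted p = 0.000499), and in VHL/FIH null cells it was higher than in VHL null cells by 1.02 (SE 0.0666, adjusted p = 8.63e-07) and than in wild-type cells by 0.60 (adjusted p = 3.86e-05). The difference from wild type in VHL/FIH null cells was 0.07 when arrays were scaled to hybridization controls (adjusted p = 0.350), and that from VHL null cells was kept under all 21 alternative settings. Adamts1 and Adamts5 are next to each other among the protein-coding genes of chromosome 16 in the RefSeq gene table. The 250 bases before the start of Adamts1 (GRCm38.p6, chr16:85803114-85803363, minus strand) are shown because the gene passed in 4 of the 5 comparisons between groups; capitals mark a hypoxia response core, GCGTG, at position -158 from the start.
Adamts1: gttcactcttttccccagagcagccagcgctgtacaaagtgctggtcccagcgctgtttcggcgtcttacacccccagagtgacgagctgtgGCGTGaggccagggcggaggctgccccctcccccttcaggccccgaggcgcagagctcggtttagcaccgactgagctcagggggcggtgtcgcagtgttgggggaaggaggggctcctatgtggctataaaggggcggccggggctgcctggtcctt

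Adamts12, which cleaves cartilage oligomeric matrix protein, was above the cutoff on both arrays in VHL/FIH null and FIH null cells only. It gave 618 and 682 in VHL/FIH null cells, 211 and 255 in VHL null cells, 367 and 301 in FIH null cells and 242 and 269 in wild-type cells. The VHL/FIH null arrays lay above the other 6, and their level was at least 2.23-fold higher than in VHL null cells (adjusted p = 0.00213) and at least 2.23-fold higher than in wild-type cells (adjusted p = 0.00322). Against FIH null cells the log2 difference was 0.93 (adjusted p = 0.0175), a call lost without FIH null replicate 2 (0.0986), VHL/FIH null replicate 1 (0.0505) or VHL/FIH null replicate 2 (0.0921). Adamts4, another enzyme that cleaves aggrecan, gave 798 and 479 in VHL/FIH null cells, 560 and 729 in VHL null cells, 464 and 479 in FIH null cells and 1026 and 934 in wild-type cells. The wild-type arrays lay above the other 6, but only the fall in FIH null cells passed, with a log2 difference of -1.03 (SE 0.242, adjusted p = 0.0284), and it was lost when any 1 of the 4 compared arrays was left out (adjusted p from 0.107 to 0.156).

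Adamts10, which binds fibrillin, gave 1110 and 841 in VHL/FIH null cells, 753 and 819 in VHL null cells, 1360 and 1278 in FIH null cells and 1513 and 1253 in wild-type cells. The 4 arrays without VHL lay below the other 4, with log2 differences from wild type of -0.80 in VHL null (adjusted p = 0.00246) and -0.50 in VHL/FIH null cells (adjusted p = 0.0283). The other probe set of Adamts10 gave 0.24 in VHL null against wild-type cells, and with the probe sets averaged the first call was lost (adjusted p = 0.326). The call in VHL/FIH null cells was lost without wild type replicate 1 (0.196) or VHL/FIH null replicate 2 (0.191), and that against FIH null cells, -0.44 (adjusted p = 0.0453), was lost without any array but wild type replicate 2 and VHL/FIH null replicate 1 (adjusted p from 0.0502 to 0.284). Adamts6 gave 964 and 1271 in VHL/FIH null cells, 817 and 948 in VHL null cells, 635 and 759.9 in FIH null cells and 869 and 778 in wild-type cells. It was higher in VHL/FIH null than in FIH null cells by a log2 difference of 0.66 (adjusted p = 0.0118), a call lost without FIH null replicate 1 (0.0880) or VHL/FIH null replicate 2 (0.100). Adamts16 spread between 60.4 and 376 within the VHL null group and passed in no comparison.

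The 3 tested ADAMTSL genes fell in VHL null against wild-type cells, where 28.4% of all tested genes were lower. Adamtsl3 gave 644 and 725 in VHL/FIH null cells, 567 and 586 in VHL null cells, 794 and 626 in FIH null cells and 1201 and 1354 in wild-type cells. The wild-type arrays lay above the other 6, with log2 differences from wild type of -0.88 in VHL/FIH null (adjusted p = 0.00199), -1.12 in VHL null (SE 0.175, adjusted p = 0.000454) and -0.84 in FIH null cells (adjusted p = 0.0152). The last was lost without wild type replicate 1 (0.0602), wild type replicate 2 (0.127) or FIH null replicate 2 (0.129).

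Adamtsl4, a protein of fibrillin microfibrils, gave 3308 and 3057 in VHL/FIH null cells, 1833 and 2396 in VHL null cells, 3117 and 3196 in FIH null cells and 3191 and 2982 in wild-type cells. Only the VHL null arrays stood apart from the rest, with a log2 difference from wild type of -0.55 (SE 0.117, adjusted p = 0.00298), which was -0.36 without VHL null replicate 1, and VHL/FIH null cells were higher than VHL null cells by 0.60 (adjusted p = 0.00222). Adamtsl5 gave 1269 and 1300 in VHL/FIH null cells, 1160 and 1287 in VHL null cells, 1380 and 1472 in FIH null cells and 1525 and 1742 in wild-type cells. Its other tested probe set had a log2 difference from wild type of 0.02 in VHL/FIH null cells (adjusted p = 0.958 over all tested probe sets). In VHL null cells that probe set gave -0.82 (adjusted p = 0.0258). With the probe sets averaged, the VHL/FIH null difference was -0.16 (adjusted p = 0.464). The brighter probe set gave -0.34 in VHL/FIH null (adjusted p = 0.0435) and -0.41 in VHL null cells (adjusted p = 0.0179). The first call was lost without any array but those of VHL null cells (adjusted p from 0.0506 to 0.245), and the second without wild type replicate 2 (0.132) or VHL null replicate 1 (0.107).

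Among the inhibitors, Timp3 was lower when both VHL and FIH were lost, and Timp1 was higher when VHL alone was lost. Timp3, which is bound to the matrix and inhibits MMPs, Adam17 and aggrecan-cleaving ADAMTS enzymes, gave 9224 and 6662 in VHL/FIH null cells, 13752 and 15343 in VHL null cells, 11829 and 10727 in FIH null cells and 12444 and 13540 in wild-type cells. The VHL/FIH null arrays lay below the other 6. The log2 difference of VHL/FIH null cells was -0.73 from wild type (SE 0.124, adjusted p = 0.000787), -0.89 from VHL null cells (adjusted p = 0.000255) and -0.52 from FIH null cells (adjusted p = 0.00535), the last being -0.29 without VHL/FIH null replicate 2. All 4 probe sets of Timp3 were lower in VHL/FIH null than in wild-type cells, with log2 differences from -1.02 to -0.58. Its 250 bases before the start (GRCm38.p6, chr10:86300162-86300411, plus strand) are shown because the gene was lowest on the VHL/FIH null arrays; capitals mark a GCGTG core at position -69.
Timp3: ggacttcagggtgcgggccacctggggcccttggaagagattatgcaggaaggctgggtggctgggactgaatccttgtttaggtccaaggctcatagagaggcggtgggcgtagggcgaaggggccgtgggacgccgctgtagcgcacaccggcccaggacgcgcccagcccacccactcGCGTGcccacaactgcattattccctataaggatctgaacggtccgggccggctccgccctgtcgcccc

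Timp1 gave 28566 and 25529 in VHL/FIH null cells, 33244 and 31609 in VHL null cells, 24220 and 23833 in FIH null cells and 25624 and 24369 in wild-type cells. The VHL null arrays were highest, with a log2 difference from wild type of 0.38 (SE 0.0645, adjusted p = 0.000845) that vanished when arrays were scaled to hybridization controls (adjusted p = 0.984). VHL/FIH null cells were lower than VHL null cells, with -0.26 (adjusted p = 0.00803), a call lost without VHL null replicate 1 (0.0697). Timp2, which takes part in the activation of Mmp2 by Mmp14, gave 57654 and 48791 in VHL/FIH null cells, 53964 and 52047 in VHL null cells, 56457 and 53007 in FIH null cells and 53979 and 52547 in wild-type cells. The groups overlapped and its log2 differences from wild type were -0.01 in VHL/FIH null (95% interval -0.17 to 0.16), -0.01 in VHL null (-0.17 to 0.16) and 0.04 in FIH null cells (-0.13 to 0.20). Of its 4 other probe sets, 2 were lower in VHL/FIH null than in wild-type cells, with log2 differences of -0.28 (adjusted p = 0.00507) and -0.38 (adjusted p = 0.0119), so the probe sets of Timp2 disagreed.

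**Figure D4:**
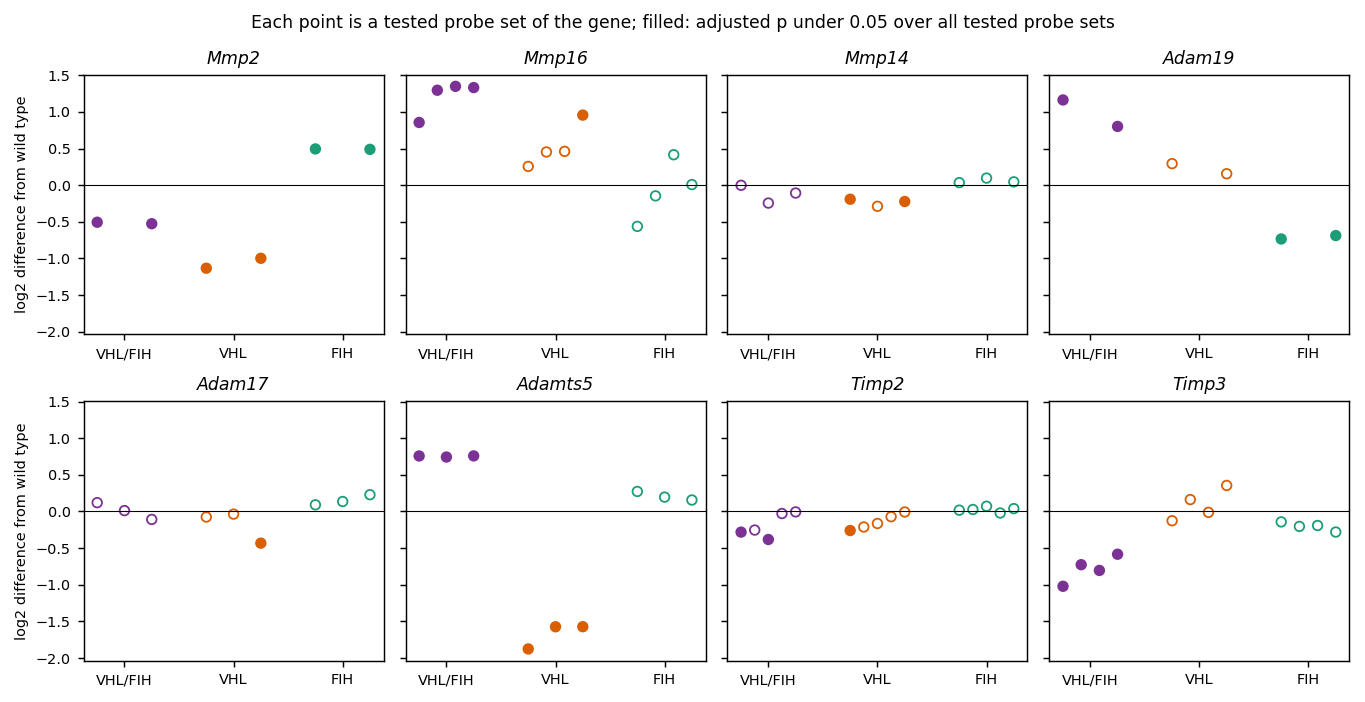
Each point is the log2 difference from wild type (y axis) of a tested probe set of the gene in VHL/FIH null, VHL null or FIH null cells, and filled points passed an adjusted p of 0.05 over all 24523 tested probe sets. The 3 probe sets of Adamts5 and the 4 of Timp3 moved alike in VHL/FIH null cells, while those of Timp2 did not. Those of Adam17 differed in VHL null cells, with -0.43, -0.08 and -0.04.

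For 11 of the 30 members, loss of FIH went with a higher log2 difference in cells without VHL than in cells with it. The interaction passed for 12 of the 30 members, 11 above 0 and 1 below, 40% of the members, where 21.9% of all tested genes passed, 13.4% above 0 and 8.47% below. The median interaction of the members was 0.39, and that of all tested genes was 0.06. The 11 were Adam8, Adam9, Adam10, Adam12, Adam19, Adamts1, Adamts5, Adamtsl3, Adamtsl4, Mmp16 and Mmp23, and the 1 below 0 was the inhibitor Timp3. An interaction of at least 2-fold was held by 6 of them, Adam8, Adam19, Adamts5, Adamtsl3, Mmp16 and Mmp23, where 5.5% of all tested genes had one. The 3 other probe sets of Mmp16 gave interactions of 0.99, 0.47 and 0.37, none of which passed over all tested probe sets (adjusted p = 0.0630, 0.439 and 0.553), and the mean of its probe sets gave 0.75. With the arrays centred on their medians, 7 were above 0 and 2 below, and with the hybridization controls as the scale 13 and 1. The number of rises thus depends on the scaling. The change with FIH loss in cells without VHL and in cells with VHL was 1.32 and 0.17 for Adam8, 0.60 and -0.56 for Mmp16, 0.24 and -0.84 for Adamtsl3, and -0.89 and -0.20 for Timp3. These were interactions of 1.15 (adjusted p = 0.00315), 1.16 (adjusted p = 0.0127), 1.08 (adjusted p = 0.0101) and -0.68 (adjusted p = 0.0178). The call for Mmp16 was lost without wild type replicate 1 (0.0541) or VHL null replicate 1 (0.0504), and that for Timp3 without wild type replicate 1 (0.0647), FIH null replicate 1 (0.0684) or VHL null replicate 2 (0.0772), while without VHL/FIH null replicate 2 Timp3 gave -0.45. The interactions of Adam10, Adam12, Adamtsl4 and Mmp23 passed with adjusted p-values of 0.0491, 0.0429, 0.0317 and 0.0477, and with 1 array left out these reached 0.198, 0.146, 0.0987 and 0.164. The call for Adam10 was lost without wild type replicate 2, FIH null replicate 1, either VHL null array or VHL/FIH null replicate 2, and that for Mmp23 without these or wild type replicate 1. The call for Adam12 was kept only without VHL null replicate 2, and that for Adamtsl4 only without VHL null replicate 2 or VHL/FIH null replicate 2. For Adamtsl3 neither the rise in cells without VHL passed nor the difference between VHL/FIH null and FIH null cells, -0.04 (95% interval -0.43 to 0.34), and only the wild-type arrays stood apart. For Adam12 the change with FIH loss passed neither in cells without VHL, 0.15 (adjusted p = 0.530), nor in cells with VHL, -0.59 (adjusted p = 0.0582).

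**Figure D5:**
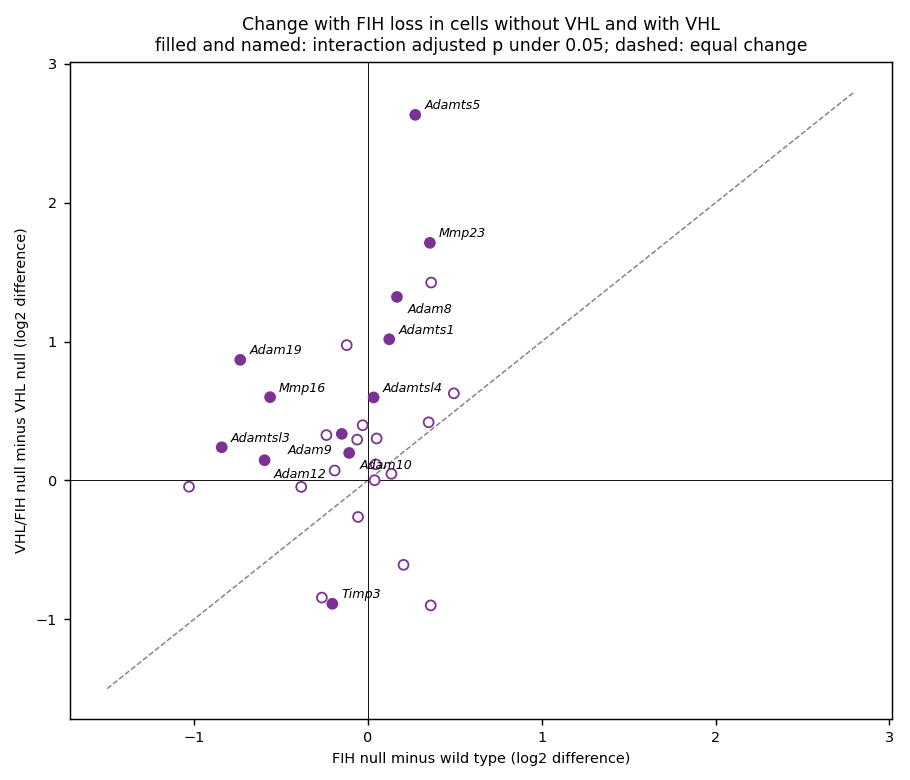
For each of the 30 tested members, the y axis is the log2 difference of VHL/FIH null minus VHL null cells and the x axis that of FIH null minus wild-type cells. The dashed line marks equal change, filled and named points are the 12 members whose interaction passed, and all of them but Timp3 lie above the line.

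Promoter sequence was at hand for 18 of the 30 tested members, in 21 RefSeq windows of 250 bases before a start. ACGTG or GCGTG, the cores of the hypoxia response element, occurred on either strand in 15 of the 21 windows (71.43%), in 55.9% of the windows of all tested genes and in 38.6% of all 32851 windows. Adam19 and Mmp23 have several windows, and by gene 13 of the 18 members held such a core. The difference between these shares was not tested. TGANTCA, the element bound by AP-1 factors, was in 1 of the 21 windows (4.76%), a window of Adam19, and in 4.53% of those of all tested genes. A match of letters describes the sequence and is not a binding site.

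Genes that act on these enzymes changed in both directions. Of 23 genes of protease activation and trafficking 16 were tested, and 5 were higher and 5 lower in VHL/FIH null against wild-type cells, 1 higher and 8 lower in VHL null, and 1 higher and none lower in FIH null cells, where 41.4%, 43.8% and 6.55% of all tested genes passed. Bsg, a surface glycoprotein that induces MMPs in neighbouring cells, was higher by 0.81 in VHL/FIH null cells (adjusted p = 4.95e-05) and by 0.76 in VHL null cells (adjusted p = 9.6e-05). Tspan14, a tetraspanin that escorts Adam10, was lower by -0.84 and -0.99 on the log2 scale in the same comparisons. Lrp1, an endocytic receptor that clears MMPs and ADAMTS enzymes from the medium, had log2 differences from wild type of -0.72 in VHL null (adjusted p = 6.08e-05) and 0.49 in FIH null cells (adjusted p = 0.00448), and was higher in VHL/FIH null than in VHL null cells by 0.66 (adjusted p = 0.000119). Frmd8, which stabilizes the complex of Adam17 with iRhom proteins, fell in VHL null cells by 0.62, and Rhbdf1, an iRhom, had -0.50 in VHL/FIH null cells. The proprotein convertase genes Pcsk6 and Pcsk7, whose products cleave propeptides, had interactions of 1.56 (adjusted p = 0.0200) and 0.53 (adjusted p = 0.0117). Of 15 genes of plasminogen activation only Plat, Plaur and F2r were tested: the activator Plat fell by 0.58 in VHL/FIH null and by 0.63 in FIH null cells and was 0.29 higher in VHL null cells (adjusted p = 2.67e-05, 9.08e-05 and 0.0032).

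Of 29 ligands and receptors shed by ADAMs 25 were tested, and 8 were higher and 7 lower in VHL/FIH null, 6 higher and 6 lower in VHL null, and none higher and 6 lower in FIH null cells against wild type, where 41.4%, 43.8% and 6.55% of all tested genes passed. The EGF-receptor ligands Hbegf and Ereg moved alike: Hbegf had log2 differences from wild type of 0.73 in VHL/FIH null, 1.59 in VHL null and -0.68 in FIH null cells, and Ereg of 1.04, 1.84 and -1.08 in the same order, all of which passed. Nrg1, a substrate of Adam19, fell in VHL/FIH null against wild-type cells by 1.18 (adjusted p = 1.12e-05). Notch1, a substrate of Adam10, fell by 1.11 in VHL null and by 1.27 in FIH null cells, with an interaction of 1.75 (adjusted p = 0.000117). Of 27 ADAMTS substrates and genes of collagen processing 21 were tested, and 6 were higher and 8 lower in VHL/FIH null, 8 and 8 in VHL null, and 6 and 6 in FIH null cells, beside the same shares of all tested genes, 41.4%, 43.8% and 6.55%. Col3a1, a fibrillar collagen, had a log2 difference from wild type of 1.15 in VHL/FIH null and 0.86 in VHL null cells. Postn, a matrix protein of fibroblasts, had -2.60 in VHL null and 1.35 in FIH null cells, and Pcolce2, an enhancer of procollagen processing, fell by 1.76 in VHL null cells and was 1.97 higher in VHL/FIH null than in VHL null cells. Cthrc1, a secreted protein of matrix-producing fibroblasts, had a log2 difference from wild type of -4.27 in VHL/FIH null cells (SE 0.209, adjusted p = 5.85e-08).

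Of 16 AP-1, Ets and Runx transcription factor genes, whose products are known to bind promoters of several MMP genes, 13 were tested. Against wild type, 4 were higher and 4 lower in VHL/FIH null cells, 4 higher and 1 lower in VHL null cells, and none higher and 3 lower in FIH null cells, where 41.4%, 43.8% and 6.55% of all tested genes passed. The AP-1 genes Fosl1 and Fosl2 were higher in VHL/FIH null cells, by 1.13 (adjusted p = 1.41e-06) and 0.70 (adjusted p = 3.6e-06), and in VHL null cells, by 1.12 and 0.83. Ets1 and Ets2 went in opposite directions, with 0.63 and -0.71 in VHL/FIH null and 0.37 and -0.48 in VHL null cells. In FIH null cells Fos fell by 0.99 (adjusted p = 0.000156) and Fosl2 by 0.33 (adjusted p = 0.00507).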

How the data were processed

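Total RNA of 8 samples of MEFs, 2 of each genotype, was hybridized to Affymetrix Mouse Genome 430 2.0 arrays, per the labels. The deposited table gives each probe set's intensity on a linear scale, which the authors computed with MAS5 per the submitters' processing notes; its version is not given in the sources used here. They were used as deposited, since the arrays already shared a trimmed mean of 2500.01 (2% left off each end). With 2 arrays a group, their number sets the precision. Of 45101 probe sets 64 are controls, 34945 have 1 symbol in the platform annotation, 932 several and 9160 none.

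Signals were transformed as log2(signal + 16). A probe set was tested when above 291.1 on at least 2 arrays, and a gene with several was represented by the brightest one (mean log2). The 4 groups were modelled in R 4.3.3 by limma 3.58.1 (lmFit, eBayes with a variance trend) over 11564 genes, two-sided, with Benjamini-Hochberg adjustment, and the fit was tested on simulated data. Where a group mean was below 291.1, a fold is the higher group mean over 291.1 and is given as "at least". Samples with the same replicate number did not deviate together (r from 0.00869 to 0.0393 over 6 pairs of groups), so no pairing was used.

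Members, lists and tests were chosen with earlier results of these data known. The text names members that passed with a log2 difference of at least 0.6, a fixed set of well-known members, the other tested members by count or value, and up to 4 genes with the smallest p of each list and comparison. Alternatives were other pseudocounts, filters, scalings, variance models and probe set rules, a replicate block, and leaving out each array. Protein sequences were not used here.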

Additional observations from a re-analysis of the deposited data

Results flagged for a closer look

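The effect of FIH loss differed between cells without and with VHL for 12 members, by the limma test of the difference itself with adjusted p-values under 0.05 (2 arrays a group). The change of VHL/FIH null from VHL null cells minus that of FIH null from wild-type cells was, on the log2 scale, 2.36 for Adamts5, 1.60 for Adam19, 1.35 for Mmp23, 1.16 for Mmp16, 1.15 for Adam8, 1.08 for Adamtsl3, 0.89 for Adamts1, 0.74 for Adam12, 0.56 for Adamtsl4, 0.49 for Adam9, 0.31 for Adam10 and -0.68 for Timp3. The calls for Adamts5, Adam19, Adam8, Adam9, Adamts1 and Adamtsl3 were kept under every alternative tried that could give them a value, and those for Adam10, Adam12, Adamtsl4 and Mmp23 were each lost in 10 or 11 of 19 or 20 alternatives.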

How the results depend on the processing

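The 30 tested members had 74 called results over the 6 comparisons. Of these, 42 were kept in every alternative that could give them a value, and 32 were lost or turned in sign in at least 1. With 2 arrays a group, 4 residual degrees of freedom are left. The numbers of members that passed, given in the order VHL/FIH null, VHL null and FIH null against wild type, VHL/FIH null against VHL null and against FIH null, and interaction, were as follows. A change of at least 2-fold left 5, 4, 1, 5, 5 and 6. A stricter filter on low signals (2454, their 75th percentile), under which 13 members were tested, gave 7, 7, 2, 10, 8 and 7. The replicate number as a block gave 16, 15, 4, 15, 16 and 12, so it moved no count by over 1.5 times. The labels do not say whether these numbers pair the samples. Leaving out each array gave 13 to 17, 10 to 14, 1 to 5, 10 to 15, 12 to 16 and 7 to 11, where the FIH null comparison had 2 without wild type replicate 1, FIH null replicate 1 or FIH null replicate 2 and 1 without wild type replicate 2, and the interaction had 7 without wild type replicate 1, FIH null replicate 1 or VHL null replicate 1. Without a variance trend the FIH null comparison had 2.

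Scaling to the hybridization controls, which were brighter than in wild type by 0.52 in VHL/FIH null, 0.38 in VHL null and 0.26 in FIH null cells (log2, 18 probe sets), moved the median of all genes to -0.57, -0.48 and -0.26, and to -0.09 against VHL null, -0.30 against FIH null and 0.18 in the interaction. It gave 4 members higher and 15 lower in VHL/FIH null, 1 and 19 in VHL null (20 in all) and 1 and 13 in FIH null cells (14 in all) against wild type. The split was 9 and 8 in VHL/FIH null against FIH null cells, 9 and 2 against VHL null cells, and 13 and 1 in the interaction. Median centring gave 5 higher and 8 lower in VHL null and 2 and 3 in FIH null cells against wild type, and 7 and 2 in the interaction. Under the scaling to controls, 11 small differences that passed before or after it turned in sign. In VHL/FIH null cells these were Adam10 to -0.15, Adam17 to -0.51, Adam9 to -0.18, Adamtsl4 to -0.48, Mmp11 to -0.48 and Timp1 to -0.41. In VHL null cells they were Adam10 to -0.20, Adam9 to -0.37 and Timp1 to -0.0016, and in FIH null cells Mmp14 to -0.21 and Timp2 to -0.22. Further differences turned without passing before or after the scaling and are not counted here. The cause was not tested.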
